A study of Mus musculus with 12 samples.

Results

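Mouse genes for histone-modifying enzymes other than the Hdac family were followed in bone marrow-derived macrophages with and without Hdac3 and with and without lipopolysaccharide. They were chosen by symbol: those beginning with Kdm, Kat and a digit, Kmt2, Setd, Sirt, Suv39, Suv420 or Prmt, and Ezh1, Ezh2, Ep300, Crebbp, Dot1l, Ehmt1 and Ehmt2. The rule used no measured difference and took 64 genes of the 19945 tested, from 69 probe sets, with the brightest probe set standing for each of the 5 genes that had more than 1. RNA was measured on Affymetrix whole-transcript arrays, 12 in all and 3 in each of 4 groups. Cells labelled wild type, with the genotype Hdac3 +/-, were set against Hdac3 -/- cells. Cells of either genotype were left untreated or received lipopolysaccharide (LPS, the bacterial outer membrane component sensed by TLR4) at 100 ng/ml for 4 h. All cells came from C57BL/6 marrow grown to day 7 in L929-conditioned medium, a source of the growth factor CSF1. The comparison group therefore carried 1 Hdac3 allele, and the sources used here do not say how or in which cells the gene was deleted. The labels do not tie replicates to separate animals or cultures, and p-values then cover only array-to-array spread, part of which may be technical. In Hdac3 +/- the sex-linked signals of replicate 1 differed from those of replicates 2 and 3, as given with Kdm5d, so these are not repeat arrays of one RNA.

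Histone-modifying enzymes place or remove acetyl and methyl groups on the histones around which DNA is wrapped. Acetyltransferases such as Ep300, Crebbp and the Kat enzymes open chromatin, sirtuins and the zinc-dependent Hdacs take acetyl groups off, and Hdac3 does so as the enzyme of the NCoR and SMRT corepressor complexes. Methyltransferases of the Kmt2 and Setd1 family mark active promoters and enhancers on H3K4, Ehmt1, Ehmt2 and the Setdb proteins mark silent chromatin on H3K9, Ezh1 and Ezh2 mark silent genes on H3K27, and Kdm enzymes remove such marks. In macrophages Kdm6b is a textbook LPS-induced demethylase, and Setdb2 is known as an interferon-inducible H3K9 methyltransferase.

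Values are log2 signals. Each difference stands with ± 1 SE from limma (n = 3 arrays in each group), and a gene was called where limma's Benjamini-Hochberg adjusted p over all 19945 genes was under 0.05. Array medians lay between 5.19 and 5.37. The interquartile range of the signals was 3.19 to 3.49 on the LPS-treated Hdac3 +/- arrays and 3.39 to 3.80 on the others. Hdac3 itself read 8.66 to 9.42 on the 6 Hdac3 +/- arrays and 6.91 to 7.52 on the 6 Hdac3 -/- arrays, with no overlap. Its signal was lower in -/- cells by -1.74 ± 0.153 untreated (limma adjusted p = 1.66e-05) and by -1.75 ± 0.153 after LPS (limma adjusted p = 5.9e-06). The labels do not say whether its probes lie inside the deleted part. The mean of 9 macrophage markers lay between 11.05 and 11.51 on every array. The mean of each of 7 lists for neutrophils, dendritic, T, B, mast, erythroid and stromal cells lay between 3.21 and 5.60. Of the 35 measured genes of these lists 6 were called higher with LPS in Hdac3 +/- cells, where 9.59% of all genes were. They were Itgae, Siglech, Cd3e, Cd79a, Dcn and Pdgfrb, by 0.40 to 0.75. The lower quartile of all signals was 3.839 to 3.995 on LPS-treated and 3.697 to 3.843 on untreated Hdac3 +/- arrays. In Hdac3 -/- cells limma called 0 of the 35 with LPS, and 4 had an unadjusted p under 0.05. In Hdac3 -/- against +/- cells Ngp and Cd79b were lower untreated (-1.18 and -0.60) and Dcn and Xcr1 after LPS (-0.71 and -0.70). Of the macrophage markers Fcgr1 was lower in Hdac3 -/- cells by -1.45 untreated and -2.41 after LPS. S100a8, a neutrophil gene that macrophages can also express, read 8.51 to 10.19 in LPS-treated Hdac3 -/- cells and 5.96, 9.45 and 6.40 in LPS-treated Hdac3 +/- cells. The part of these genes in the results for the enzymes was not tested.

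Both replicate 1 arrays of Hdac3 +/- stood apart in sex-linked genes. Kdm5d, a Y-linked H3K4 demethylase, read 6.43 on the untreated and 6.14 on the LPS-treated one, and between 2.76 and 3.57 on the other 10 arrays. Xist, the RNA of the silent X chromosome, read 3.93 and 3.20 on these arrays and 9.67 to 10.97 elsewhere. Eif2s3y and Uty, also Y-linked, were at 7.22 or above on these 2 arrays and at 3.24 or below elsewhere. The groups therefore mixed arrays that differ in sex-linked signal in Hdac3 +/- and did not in Hdac3 -/-. Without both arrays, an alternative chosen after seeing the data, the counts of called enzyme genes were 25 for LPS in Hdac3 +/- (24 with them), 6 for LPS in Hdac3 -/- (7), 2 for genotype in untreated cells (2), 15 for genotype after LPS (14) and 1 for the interaction (1). Kdm5d was called in no comparison, and its difference between genotypes after LPS was -1.21 ± 0.806.

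**Figure D1:**
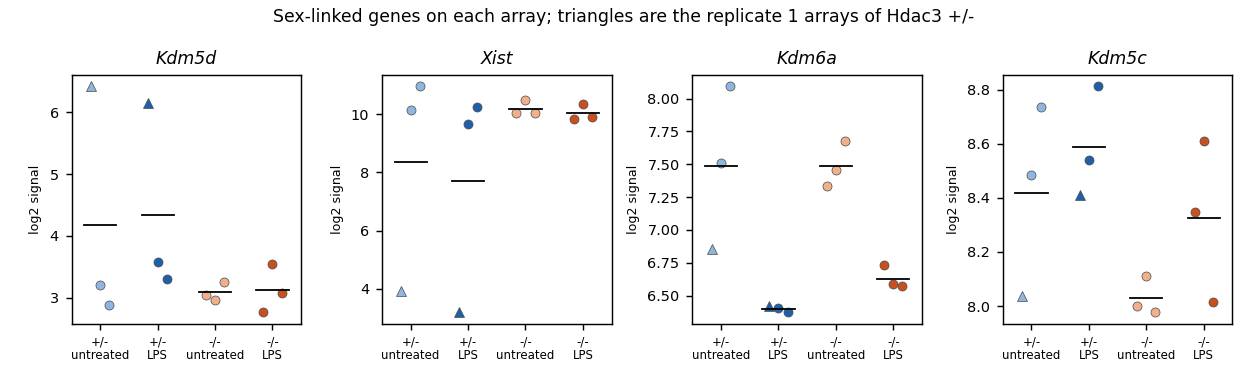
Log2 signal of Kdm5d, Xist, Kdm6a and Kdm5c on each of the 12 arrays, with a bar for the group mean and triangles for the replicate 1 arrays of Hdac3 +/-. The triangles lie at 6.14 and 6.43 for Kdm5d and at 3.20 and 3.93 for Xist, apart from the other 10 arrays.

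The level of the enzyme genes was mostly well above the lower range of the arrays. Of the 64 genes 60 had a mean log2 signal of at least 5 over the 12 arrays, and the other 4 were Prmt8, Kdm5d, Kdm4d and Suv39h2. Over the 5 comparisons 29 of the 64 were called at least once and 35 in none with the model of 4 group means, of which 17 were called in at least 1 alternative analysis and 18 in no alternative. Those not called included the paired coactivators Ep300 and Crebbp, the acetyltransferase Kat2a of the SAGA complex, the H3K79 methyltransferase Dot1l and the H3K9 methyltransferase Ehmt2. The other 30 were Kat5, Kdm1a, Kdm2a, Kdm3a, Kdm4a to Kdm4d, Kdm5b, Kdm5c, Kdm5d, Kdm8, Kmt2a, Kmt2b, Kmt2d, Kmt2e, Prmt1, Prmt2, Prmt3, Prmt6, Prmt7, Prmt8, Setd3, Setd4, Setd5, Sirt2, Sirt4, Sirt5, Sirt6 and Suv39h2.

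The first question was how LPS changed these genes in Hdac3 +/- macrophages. LPS raised 4 of them and lowered 20. Setdb2 rose most, then Kdm6b, Kdm7a and Setd1b, and the largest decreases were those of Kdm2b, Setdb1, Kat6b and Setd7. Across all genes tested 9.59% were called higher and 15.5% lower (25.1% in either direction). Among genes as bright as most of the enzymes, with a mean signal of at least 5, the shares were 11.5% and 25.3%, beside 6.67% and 33.3% of the 60 enzyme genes at that level. The median difference was -0.26 over the 64 genes, 0.08 over all genes and -0.14 over genes with a signal of at least 5. After quantile normalization, which makes the signal range of all arrays equal, 5 enzyme genes were called higher and 15 lower. Of these calls 19 were shared with those above. The part of the signal range in these counts was not tested. In bulk RNA fewer cells that hold a transcript and less of it per cell cannot be told apart.

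Among the H3K9 enzymes Setdb2 and Setdb1 moved in opposite directions. Setdb2, a SET domain H3K9 methyltransferase, read 6.75, 6.66 and 7.05 without and 9.31, 9.04 and 9.57 with LPS. All LPS arrays lay above all untreated ones, a rise of 2.49 ± 0.168 or 5.62-fold (limma adjusted p = 2.83e-07). Setdb1, the enzyme that silences retroelements with KAP1, read 8.21, 8.21 and 8.44 untreated and 7.06, 6.93 and 6.96 with LPS. Its groups did not overlap either, with a difference of -1.30 ± 0.123 (limma adjusted p = 5.32e-06). Ehmt1 (GLP), the partner of Ehmt2 in the H3K9 dimethylation complex, fell from 7.50, 7.64 and 7.71 to 6.67, 6.58 and 6.78, by -0.95 ± 0.14 (limma adjusted p = 0.000241). Ehmt2 (G9a) read 8.65, 8.71 and 8.80 untreated and 8.54, 8.42 and 8.65 with LPS, a difference of -0.18 ± 0.127 that was not past the threshold.

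Demethylases gave 2 of the 4 increases. Kdm6b (JMJD3), which removes H3K27 methylation, read 5.52, 5.79 and 5.53 untreated and 6.41, 7.37 and 6.64 with LPS. The groups did not overlap, and the rise was 1.20 ± 0.215 or 2.29-fold (limma adjusted p = 0.0011). Kdm7a, a PHD and JmjC domain demethylase of H3K9 and H3K27, read 7.88, 8.59 and 8.68 untreated and 9.17, 9.14 and 9.33 with LPS. It rose by 0.83 ± 0.184, and its second probe set by 1.10 ± 0.168. Kdm6a (UTX), the X-linked relative of Kdm6b with the same substrate, went the other way. It read 6.85, 7.51 and 8.10 untreated and 6.42, 6.40 and 6.37 with LPS, a difference of -1.09 ± 0.23 (limma adjusted p = 0.00346). Its lowest untreated value was on replicate 1, one of the arrays apart in sex-linked genes, and without both of those arrays the difference was -1.41. Kdm2b, which recruits a PRC1 complex to CpG islands, fell from 7.35, 7.33 and 7.50 to 5.81, 6.15 and 5.85. This was the largest decrease of the 64 genes, -1.45 ± 0.141 or 2.74-fold (limma adjusted p = 6.96e-06), with every LPS array below every untreated one. Kdm1b (LSD2) fell by -0.79 ± 0.129 and Kdm3b, an H3K9 demethylase, by -0.51 ± 0.138. The call of Kdm3b was lost without untreated replicate 3 (-0.40) or LPS replicate 2 (-0.44) of Hdac3 +/-. The other 12 demethylases were not called, and their differences lay between -0.47 (Kdm4c) and 0.28 (Kdm5b). Kdm4c read 8.16, 8.22 and 8.29 untreated and 8.24, 7.50 and 7.52 with LPS. It was called lower without LPS replicate 1 (-0.71) and without both replicate 1 arrays (-0.75). It was also called with array weights and with genes of a mean signal under 5 left out.

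Of the 8 H3K4 methyltransferases 3 fell and 1 rose. Setd7, a monomethyltransferase of H3K4 and of other proteins, read 7.00, 7.29 and 7.18 untreated and 5.88, 6.14 and 5.72 with LPS. The groups were separate, with a difference of -1.24 ± 0.162 (limma adjusted p = 8.68e-05). Kmt2c (MLL3), an enhancer H3K4 methyltransferase, fell by -1.06 ± 0.191 and Setd1a, an enzyme of H3K4 trimethylation, by -0.60 ± 0.149, a call lost with quantile normalization (-0.39). Setd1b, the close relative of Setd1a, read 6.60, 6.81 and 6.91 untreated and 7.01, 7.15 and 7.40 with LPS. Its rise of 0.41 ± 0.136 had a limma adjusted p of 0.0394 and was past the threshold in 4 of 12 fits that leave out 1 array. Kmt2a, Kmt2b, Kmt2d and Kmt2e were not called, with differences from -0.43 to -0.03.

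Both enzymes of PRC2, the complex that methylates H3K27, were lower with LPS. Ezh1 read 7.96, 8.51 and 8.75 untreated and 7.76, 7.61 and 7.71 with LPS, a difference of -0.71 ± 0.197 (limma adjusted p = 0.0174). The groups did not overlap, but the call was lost without untreated replicate 3 (-0.54) or LPS replicate 2 (-0.67), and with quantile normalization (-0.56). Ezh2, the form typical of dividing cells, read 9.28, 8.10 and 9.13 untreated and 8.12, 7.37 and 7.53 with LPS. These groups overlapped, and the difference of -1.16 ± 0.314 (limma adjusted p = 0.0147) was not called in the 4 fits without untreated replicate 1 (-0.94), untreated replicate 3 (-1.02), LPS replicate 2 (-1.01) or LPS replicate 3 (-1.09). Of 24 measured cell cycle genes 11 fell in the same comparison and 0 rose, with a median of -1.13. The mean signal of that list per array was 8.22 to 9.55 untreated and 7.33 to 8.45 with LPS, and its part in the difference of Ezh2 was not tested. Setd2 (H3K36) and Dot1l (H3K79) were not called, at -0.46 ± 0.189 and 0.56 ± 0.251. The second probe set of Setd2 fell by -0.61 ± 0.195, and the mean of its probe sets was called (-0.54, limma adjusted p = 0.0491). Setd2 was also called without untreated replicate 1 (-0.63) and with the replicate block within genotype. Dot1l was called higher without LPS replicate 1 (0.76) and without both replicate 1 arrays (0.90).

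Of 10 acetyltransferases 4 were called lower and 0 higher. In alternatives Kat2b was called higher 3 times and Kat6a 4 times, among them with the replicate block within genotype (0.55, limma adjusted p = 0.0468, and 0.46, limma adjusted p = 0.0358). Kat6b (MORF), a MYST family H3 acetyltransferase, read 5.71, 6.01 and 6.59 untreated and 4.77, 4.73 and 5.05 with LPS. No values overlapped, and the difference was -1.25 ± 0.187 (limma adjusted p = 0.000264). Kat14, a subunit of the ATAC acetyltransferase complex, fell by -0.96 ± 0.163, Kat7 (HBO1), which acetylates histones at replication origins, by -0.72 ± 0.158, and Kat8 (MOF), the H4K16 acetyltransferase, by -0.56 ± 0.14. The call of Kat8 was lost with quantile normalization (-0.34). Ep300 read 8.55, 8.70 and 9.41 untreated and 8.64, 8.31 and 8.91 with LPS, and Crebbp 8.36, 8.56 and 9.05 against 8.73, 8.74 and 8.92. Both pairs of groups overlapped, with differences of -0.27 ± 0.216 and 0.14 ± 0.222. Kat2a was at -0.31 ± 0.177, also not past the threshold.

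Sirtuins, the NAD-dependent deacylases, gave 3 decreases among 7 genes. Sirt1, the nuclear member that deacetylates p53 and NF-kappaB, read 7.26, 7.26 and 7.72 untreated and 6.97, 6.58 and 6.94 with LPS. The groups were separate, and the difference was -0.59 ± 0.156 (limma adjusted p = 0.0138). It was not past the threshold without untreated replicate 3, without LPS replicate 2, with quantile normalization or with the Hdac3 +/- arrays fitted alone. Sirt7 in the nucleolus fell by -0.69 ± 0.181 and Sirt3 in mitochondria by -0.58 ± 0.174. The call of Sirt7 was lost with quantile normalization (-0.56), and that of Sirt3 in 4 of the 12 fits without 1 array. Of 8 arginine methyltransferases Prmt9 was called, at -0.61 ± 0.155, and of 4 other SET domain genes Setd6, which methylates the NF-kappaB subunit RelA, at -0.74 ± 0.145.

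In Hdac3 +/- cells the deviations of untreated and LPS-treated arrays of a replicate number correlated at 0.223 to 0.327. Some arrays of different genotype correlated as much, so this does not establish that the numbers mark pairs. With the replicate number as a block within each genotype 30 enzyme genes were called, 6 higher and 24 lower. All 24 calls above were among them. The 6 added were Kat2b and Kat6a, given above, and Prmt7 (-0.76), Setd2 (-0.46), Sirt4 (-0.44) and Suv39h2 (-0.93).

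The same question was asked in Hdac3 -/- cells, where LPS raised 2 enzyme genes and lowered 5. Background shares were 3.69% higher and 5.18% lower over all genes (8.87% in either direction), and 5.85% and 8.68% over genes with a signal of at least 5, beside 3.33% and 8.33% of the 60 enzyme genes at that level. All 7 were also called in the same direction in Hdac3 +/- cells. After median centring the split was 1 higher and 8 lower. Kdm7a rose most, from 8.35, 8.22 and 8.50 to 9.61, 9.81 and 9.73, by 1.36 ± 0.184 or 2.57-fold (limma adjusted p = 0.000296). Its second probe set rose by 1.47 ± 0.168, and with either one all LPS arrays lay above all untreated ones.

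Setdb2 in Hdac3 -/- cells was at 6.05, 6.42 and 6.05 without and at 6.84, 6.81 and 6.59 with LPS. The groups did not overlap, but the rise of 0.57 ± 0.168 had a limma adjusted p of 0.0498, which stayed under the threshold in 5 of 12 fits that leave out 1 array and ranged from 0.00148 to 0.188 over all alternatives. Setd7 fell from 7.34, 7.03 and 7.62 to 6.44, 6.35 and 6.44 (-0.92 ± 0.162), Kdm2b from 7.09, 7.34 and 7.01 to 6.42, 6.19 and 6.38 (-0.82 ± 0.141), and Setdb1 from 8.29, 8.26 and 8.24 to 7.52, 7.36 and 7.62 (-0.76 ± 0.123). In each of these 3 genes the LPS arrays were below all untreated arrays, and the call held in all 12 fits without 1 array. Kdm6a read 7.34, 7.45 and 7.68 untreated and 6.73, 6.59 and 6.57 with LPS. Its difference of -0.86 ± 0.23 was lost when any of the 6 Hdac3 -/- arrays was left out, with values from -0.93 to -0.77. Sirt3 fell by -0.77 ± 0.174, a call lost without untreated replicate 3 or LPS replicate 3.

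Kdm6b after LPS in Hdac3 -/- cells differed from untreated by 0.65 ± 0.215 (limma adjusted p = 0.0857), from 6.80, 6.58 and 7.11 to 7.51, 7.35 and 7.57. The groups did not overlap. The value passed the threshold in 4 alternatives, with array weights, with the Hdac3 -/- arrays fitted alone, with the replicate block within genotype and without Hdac3 +/- LPS replicate 2 (limma adjusted p from 0.00367 to 0.0238). Ezh1 (-0.36 ± 0.197), Ezh2 (-0.64 ± 0.314), Ehmt1 (-0.44 ± 0.14), Ehmt2 (-0.39 ± 0.127), Sirt1 (-0.45 ± 0.156), Dot1l (0.57 ± 0.251), Ep300 (-0.48 ± 0.216), Crebbp (0.42 ± 0.222) and Kat2a (-0.35 ± 0.177) were not called either. With array weights Ezh2, Ehmt1, Ehmt2, Sirt1, Dot1l and Ep300 passed the threshold. Ehmt1 and Ehmt2 also passed with median centring, Ehmt1 without Hdac3 -/- untreated replicate 3, and Sirt1 with the Hdac3 -/- arrays fitted alone. The number called in this genotype depended on the model, with 14 when the Hdac3 -/- arrays were fitted alone and 27 when arrays were weighted by their agreement with the model. In Hdac3 -/- cells the weights were 3.38 for untreated and 2.77 for LPS-treated replicate 1, and 0.79 to 0.99 for the other arrays. Calls with array weights in this genotype thus leaned on 1 array per group.

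**Figure D2:**
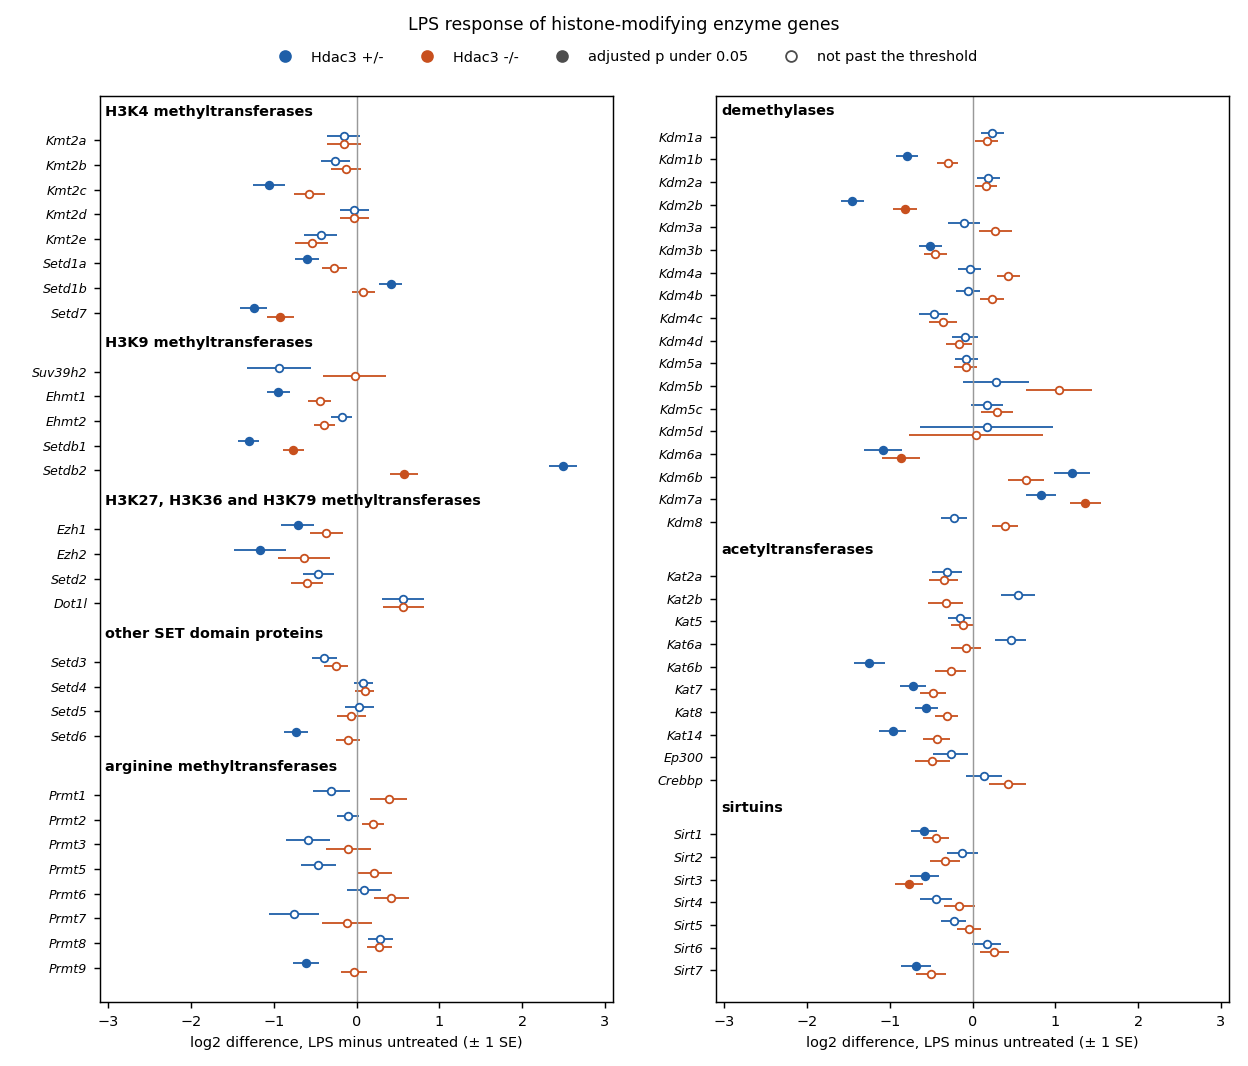
Log2 difference between LPS-treated and untreated cells for each of the 64 enzyme genes, grouped by role, in Hdac3 +/- (blue) and Hdac3 -/- (orange) cells, with bars of 1 SE and filled points for a limma adjusted p under 0.05. Blue filled points are 4 to the right of 0 and 20 to the left, orange ones 2 and 5, and Setdb2 lies at 2.49 in Hdac3 +/- and 0.57 in Hdac3 -/- cells.

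The genes called with LPS in both genotypes were Setdb2, Kdm7a, Kdm6a, Setd7, Setdb1, Kdm2b and Sirt3. For the 5 of them with a single promoter entry the 250 bases before the start of the gene are shown, because these genes were called with LPS in both genotypes. Setdb2 and Kdm7a rose, and Kdm6a, Setd7 and Setdb1 fell. The sequences are those of RefSeq on GRCm38.p6, where 55 of the 64 genes had an entry. Setdb2 is at chr14:59440881-59441130 and Kdm7a at chr6:39206774-39207023, both on the minus strand, Kdm6a at chrX:18162325-18162574 on the plus strand, and Setd7 at chr3:51560824-51561073 and Setdb1 at chr3:95357203-95357452 on the minus strand. Capitals mark matches to the 6 motifs named next.
Setdb2: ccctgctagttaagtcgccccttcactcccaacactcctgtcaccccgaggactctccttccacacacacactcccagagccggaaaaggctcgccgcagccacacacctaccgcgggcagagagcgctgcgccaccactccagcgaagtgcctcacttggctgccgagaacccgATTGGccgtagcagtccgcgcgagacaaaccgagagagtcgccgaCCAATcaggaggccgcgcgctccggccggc
Kdm7a: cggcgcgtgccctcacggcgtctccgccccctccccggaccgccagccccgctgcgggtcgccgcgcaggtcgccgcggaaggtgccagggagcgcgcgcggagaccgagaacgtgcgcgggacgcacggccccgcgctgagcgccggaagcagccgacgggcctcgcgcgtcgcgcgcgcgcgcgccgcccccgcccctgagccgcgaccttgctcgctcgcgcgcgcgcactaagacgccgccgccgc
Kdm6a: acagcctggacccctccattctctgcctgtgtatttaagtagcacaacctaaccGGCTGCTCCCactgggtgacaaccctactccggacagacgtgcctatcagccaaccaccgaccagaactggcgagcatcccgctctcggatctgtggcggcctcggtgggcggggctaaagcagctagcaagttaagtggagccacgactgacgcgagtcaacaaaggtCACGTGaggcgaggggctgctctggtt
Setd7: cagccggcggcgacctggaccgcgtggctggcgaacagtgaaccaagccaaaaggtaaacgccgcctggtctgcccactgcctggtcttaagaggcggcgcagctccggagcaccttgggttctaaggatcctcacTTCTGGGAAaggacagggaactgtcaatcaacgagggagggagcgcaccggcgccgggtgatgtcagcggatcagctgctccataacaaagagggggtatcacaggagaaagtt
Setdb1: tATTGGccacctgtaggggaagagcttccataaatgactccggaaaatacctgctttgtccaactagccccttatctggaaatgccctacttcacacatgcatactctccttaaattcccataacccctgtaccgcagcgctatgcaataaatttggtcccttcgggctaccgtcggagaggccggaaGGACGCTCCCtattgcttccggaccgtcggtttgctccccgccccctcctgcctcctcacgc

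Searched on both strands were the interferon-stimulated response element (GAAA, any 2 bases, GAAA), the interferon-gamma activated site TTCNNNGAA, a kappaB-like motif (GGGA, any 4 bases, CC), the AP-1 motif TGAGTCA, the CCAAT box CCAAT and the E-box CACGTG. Of 32851 promoter windows of the same length 2.98%, 7.02%, 17.6%, 4.46%, 33.8% and 6.02% held them. Setdb2 had CCAAT boxes whose first bases lay at -75 and -30 from the start. Kdm6a had a kappaB-like match at -196 and an E-box at -27, Setd7 an interferon-gamma activated site match at -114, and Setdb1 a kappaB-like match at -62 and a CCAAT box at -249. Kdm7a had none of the 6 in this window. A match is a description of letters and not of binding.

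Genotype was compared next, first in untreated cells. Loss of Hdac3 went with 2 called enzyme genes, Kdm6b higher and Kdm3b lower, where 1.22% of all genes were called higher and 1.44% lower (2.66% in either direction). Kdm6b read 5.52, 5.79 and 5.53 in Hdac3 +/- and 6.80, 6.58 and 7.11 in Hdac3 -/- cells. The groups were apart, by 1.22 ± 0.215 or 2.33-fold (limma adjusted p = 0.0063), and this call held in all 12 fits without 1 array. The untreated Hdac3 -/- values were thus in the range of the LPS-treated Hdac3 +/- values of 6.41, 7.37 and 6.64. Kdm3b read 9.56, 9.62 and 9.93 in Hdac3 +/- and 9.02 and 9.23 on replicates 1 and 2 of Hdac3 -/- cells, with a mean of 9.08 ± 0.125 (SD, n = 3). Every Hdac3 -/- array was below every Hdac3 +/- array. The difference of -0.62 ± 0.138 (limma adjusted p = 0.0257) was lost without Hdac3 +/- replicate 3 (-0.51), Hdac3 -/- replicate 1 (-0.59) or Hdac3 -/- replicate 3 (-0.58). Setdb2 was at -0.65 ± 0.168 (limma adjusted p = 0.063) and Ezh2 at -0.81 ± 0.314 (limma adjusted p = 0.268). Setdb2 passed the threshold with array weights, without Hdac3 +/- LPS replicate 2 and without Hdac3 -/- untreated replicate 2 (limma adjusted p from 0.0119 to 0.043), and Ezh2 with array weights (-0.96) and without Hdac3 +/- untreated replicate 2 (-1.17). The median over the 64 genes was -0.03, beside 0.01 over all genes.

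After LPS 14 enzyme genes differed between genotypes, 8 higher and 6 lower in Hdac3 -/- cells. The background was 9.69% higher and 5.99% lower (15.7% in either direction), and 15.9% and 8.41% among genes with a signal of at least 5, beside 13.3% and 10.0% of the 60 enzyme genes. This comparison shares the LPS-treated Hdac3 +/- arrays with the LPS response of that genotype. Setdb2 had the largest difference, with 9.31, 9.04 and 9.57 in Hdac3 +/- and 6.84, 6.81 and 6.59 in Hdac3 -/- cells. Every Hdac3 -/- array was below every Hdac3 +/- array, by -2.56 ± 0.168 or 5.90-fold (limma adjusted p = 6.19e-07).

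The other decreases were in acetyltransferases, demethylases and Setd2. Kat2b (PCAF), an H3K9 acetyltransferase and alternative to Kat2a in the SAGA complex, read 7.22, 6.67 and 6.91 in Hdac3 +/- and 5.24, 5.48 and 5.71 in Hdac3 -/- cells. The groups were separate, with a difference of -1.46 ± 0.208 or 2.74-fold (limma adjusted p = 0.000361). Kat6a (MOZ), the close relative of Kat6b, read 8.98, 8.53 and 9.18 against 8.10, 8.03 and 7.84, a difference of -0.90 ± 0.185 (limma adjusted p = 0.00481). Both calls held in all 12 fits without 1 array. Kdm3b was lower after LPS as well, with 9.20, 9.04 and 9.33 against 8.67, 8.68 and 8.54 (-0.56 ± 0.138), a call lost without Hdac3 +/- LPS replicate 3 (-0.49) or Hdac3 -/- LPS replicate 3 (-0.52). Setd2 (-0.60 ± 0.189) and Kdm5a, an H3K4 demethylase (-0.45 ± 0.141), each held in 3 of those 12 fits, and the second probe set of Setd2 gave -0.02 ± 0.195.

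The 8 genes higher in Hdac3 -/- cells after LPS were Kat6b, Prmt5, Setd1a, Prmt9, Setd6, Kdm1b, Setdb1 and Kat14. Kat6b read 4.77, 4.73 and 5.05 in Hdac3 +/- and 5.68, 5.85 and 5.88 in Hdac3 -/- cells, without overlap, a difference of 0.95 ± 0.187 (limma adjusted p = 0.00362). Beside it, the LPS response of Kat6b was -1.25 ± 0.187 in Hdac3 +/- and -0.27 ± 0.187 in Hdac3 -/- cells. Setd1a (0.66 ± 0.149) and Kdm1b (0.59 ± 0.129) also held in all 12 fits without 1 array. Setdb1 (0.52 ± 0.123) was lost without Hdac3 -/- LPS replicate 3, and Prmt9 (0.61 ± 0.155) and Setd6 (0.60 ± 0.145) without that array, Hdac3 -/- LPS replicate 1 or Hdac3 +/- LPS replicate 3. Prmt5, the main enzyme of symmetric arginine dimethylation, read 8.49, 7.78 and 7.93 against 9.02, 8.33 and 9.09, and Kat14 read 7.90, 8.13 and 7.58 against 8.50, 8.10 and 8.53. Both pairs of groups overlapped. The difference was 0.75 ± 0.215 for Prmt5 and 0.51 ± 0.163 for Kat14, and the call held in 8 and 2 of the 12 fits.

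In the same comparison after LPS the arginine methyltransferases, which methylate histone and other proteins, lay above 0 in 7 of 8 cases. So did 8987 of all 19945 genes and 6903 of the 11707 genes with a signal of at least 5. This class had the highest median of the enzyme classes in this comparison. Of the 8 genes 2 were called higher (9.69% of all genes were, and 15.9% of those with a signal of at least 5). Their median was 0.57 and their range -0.06 to 0.75, beside a median of -0.04 over all genes and 0.10 over genes with a signal of at least 5. In untreated cells their median was -0.00, with 4 of 8 above 0 and 0 called, also 0 at an unadjusted limma p under 0.05. For the genotype by LPS interaction, given below, 0 of the 8 were called and 3 had an unadjusted limma p under 0.05. The 8 genes were not independent results. On LPS-treated Hdac3 -/- replicate 2 Prmt1, Prmt3, Prmt5, Prmt6, Prmt7 and Prmt9 read lowest of that group, and Prmt2 highest. Prmt8, the gene below 0 after LPS, was near the floor. An effect on the family as a set was not tested.

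The number of calls in this comparison rested on single arrays. It was 7 without Hdac3 +/- LPS replicate 3, 8 without Hdac3 -/- LPS replicate 1, 6 without Hdac3 -/- LPS replicate 3, and 23 with array weights. The narrower signal range of the LPS-treated Hdac3 +/- arrays moved with this comparison. After quantile normalization, which makes that range equal, 13 enzyme genes were called. The part of the signal range in the calls of this comparison was not tested. Kdm6b differed in Hdac3 -/- cells by 0.67 ± 0.215 (limma adjusted p = 0.0512) and Setd7 by 0.50 ± 0.162 (limma adjusted p = 0.0525), and each passed the threshold in 6 alternatives. Ezh1 (0.20 ± 0.197), Ezh2 (-0.28 ± 0.314), Sirt1 (-0.01 ± 0.156), Ehmt1 (0.38 ± 0.14), Ehmt2 (-0.23 ± 0.127), Ep300 (-0.61 ± 0.216), Crebbp (-0.10 ± 0.222), Kat2a (0.33 ± 0.177) and Dot1l (0.52 ± 0.251) were not called, although Ep300 was in 3 alternatives and Kat2a in 1.

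**Figure D3:**
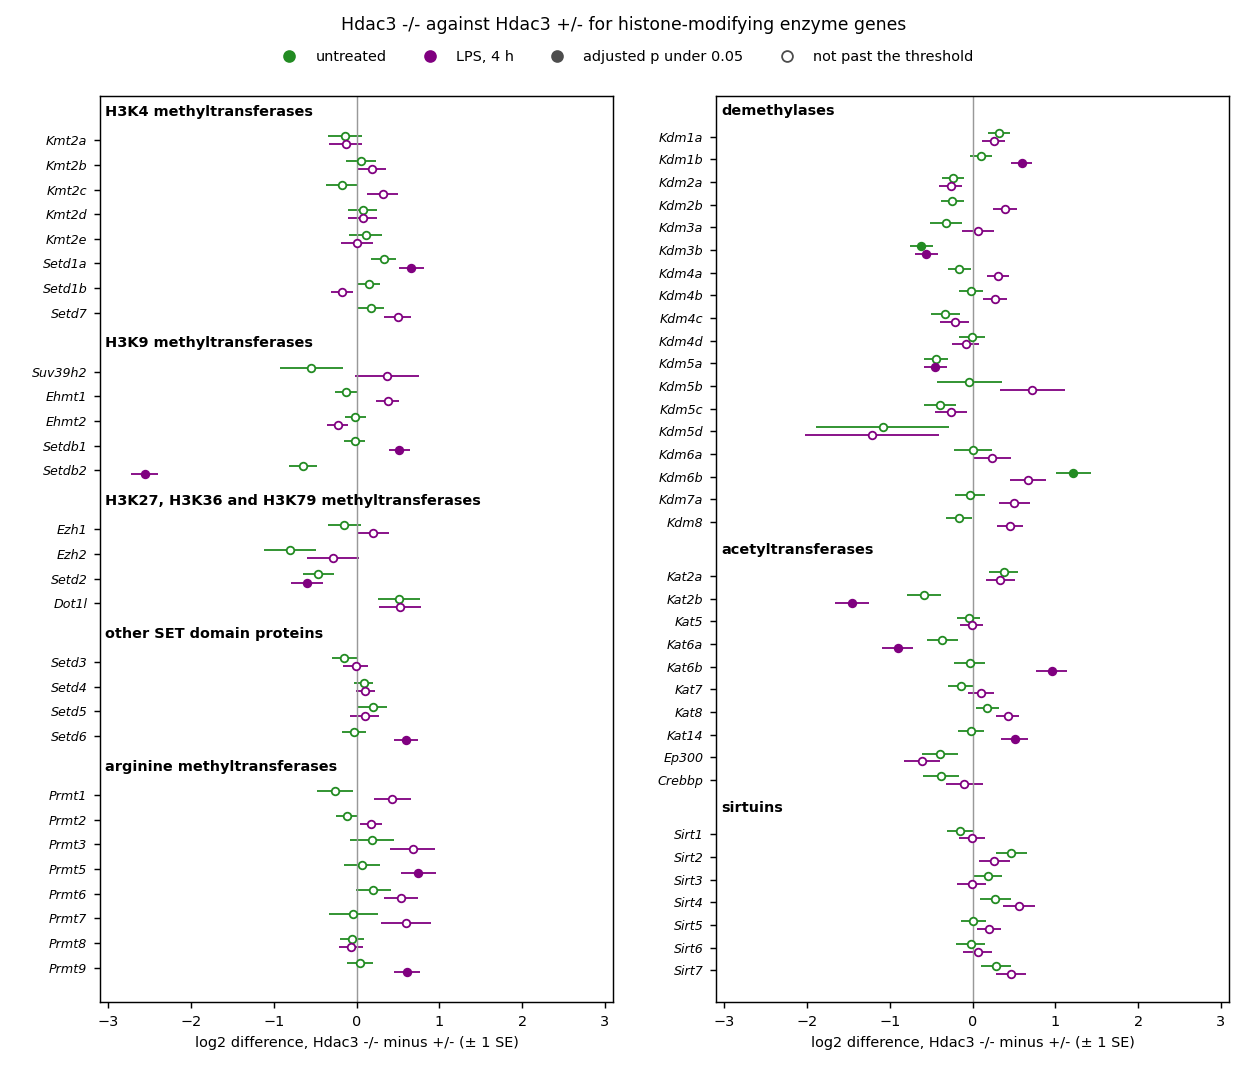
Log2 difference between Hdac3 -/- and Hdac3 +/- cells for the 64 enzyme genes, grouped by role, untreated (green) and after LPS (purple), with bars of 1 SE and filled points for a limma adjusted p under 0.05. Filled green points are Kdm6b at 1.22 and Kdm3b at -0.62, and the purple point farthest from 0 is Setdb2 at -2.56.

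Whether the LPS response itself differed between genotypes was tested by the interaction, the response in Hdac3 -/- minus that in Hdac3 +/- cells. Setdb2 was the only enzyme gene called, at -1.91 ± 0.238 (limma adjusted p = 0.0013), where 0.306% of all genes were called above 0 and 0.777% below (1.08% in either direction). Its LPS response was 2.49 ± 0.168 in Hdac3 +/- and 0.57 ± 0.168 in Hdac3 -/- cells, and the interaction was called in all 21 alternatives that could give it, with values from -2.05 to -1.78. Kat6b was next by adjusted p, at 0.99 ± 0.264 (limma adjusted p = 0.103). It was called with the replicate block within genotype (limma adjusted p = 0.0459) and without Hdac3 +/- untreated replicate 1, and Kdm2b (0.64 ± 0.2, limma adjusted p = 0.177) with array weights. Kat2b (-0.87 ± 0.294), Kat6a (-0.54 ± 0.262), Kdm6b (-0.55 ± 0.305), Kdm7a (0.53 ± 0.26), Setdb1 (0.54 ± 0.173) and Setd7 (0.32 ± 0.229) were not called. Over the 64 genes the interaction was above 0 in 44, with a median of 0.19, beside -0.02 over all genes and 0.09 over those with a signal of at least 5. It was above 0 in 9452 of all 19945 genes and in 7033 of the 11707 genes with a signal of at least 5.

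**Figure D4:**
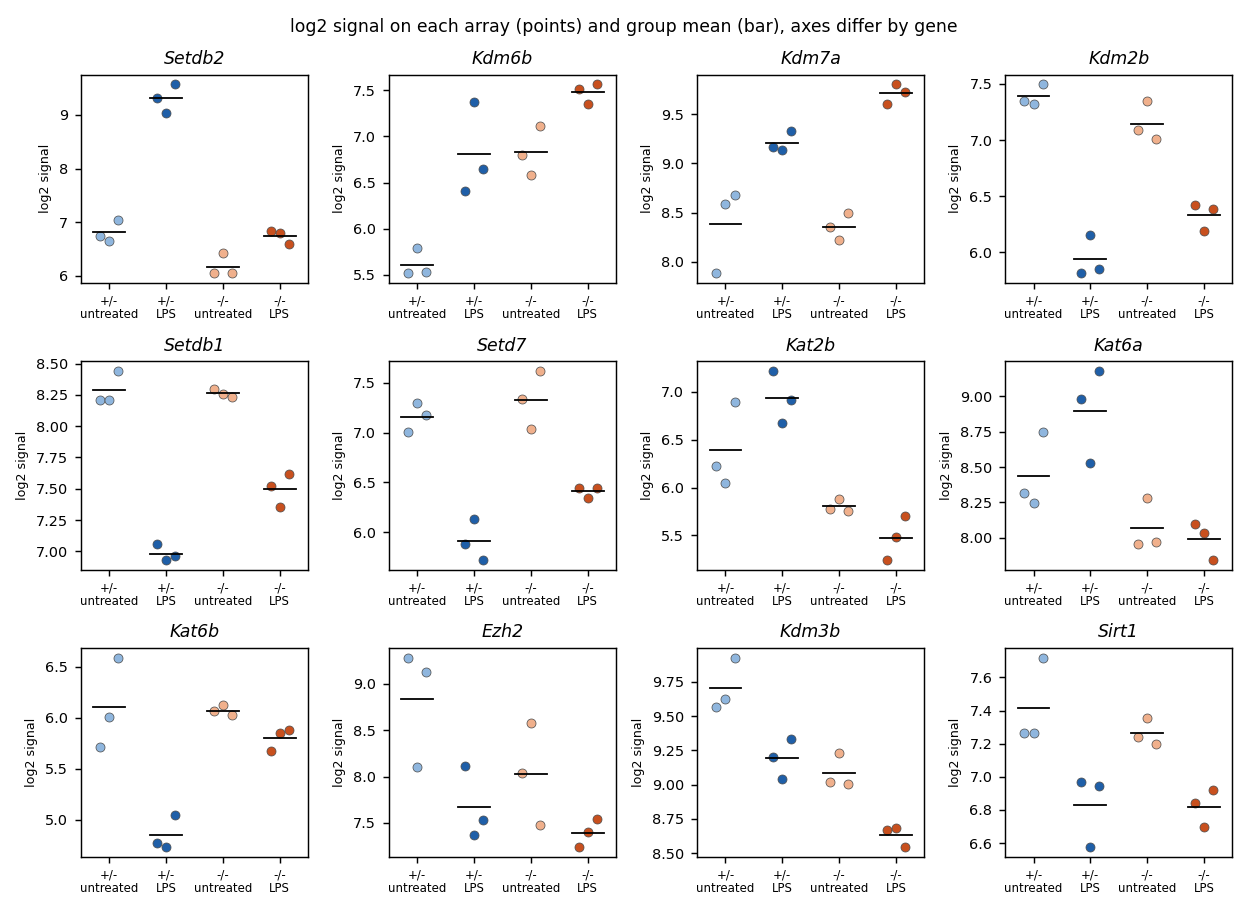
Log2 signal of 12 enzyme genes on each array, with a bar for the mean of each group of 3. Setdb2 lies between 9.04 and 9.57 in LPS-treated Hdac3 +/- cells and at 7.05 or below in the other groups, while Kdm6b lies at 5.79 or below in untreated Hdac3 +/- cells and at 6.41 or above in the others.

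Partner proteins and related enzymes were counted from lists written from general knowledge. For LPS in Hdac3 +/- cells 0 of 19 further acetyltransferases and coactivators rose and 11 fell, with a median of -0.71, where 9.59% of all genes rose and 15.5% fell (11.5% and 25.3% at a signal of at least 5, with a median of -0.14). They included Tada2a, a SAGA and ATAC subunit (-1.24 ± 0.211), and the nuclear receptor coactivator Ncoa3 (-1.14 ± 0.173). Of 14 partners of the Kmt2 and Setd1 enzymes 0 rose and 6 fell, among them Pagr1a (-1.28 ± 0.156), Ash2l (-0.57 ± 0.159) and Men1 (-0.52 ± 0.152). Of 10 PRC2 partners 2 rose and 3 fell. In Hdac3 -/- cells the counts were 0 up and 4 down of 19, 0 up and 1 down of 14, and 2 up and 0 down of 10, where 3.69% of all genes rose and 5.18% fell.

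The single relatives named here were chosen among the called genes of the lists. Their size therefore cannot be compared with that of the 64 enzyme genes. Jarid2, a JmjC protein without demethylase activity that joins PRC2 to its targets, rose with LPS by 1.61 ± 0.181 in Hdac3 +/- and 1.42 ± 0.181 in Hdac3 -/- cells. It was lower in Hdac3 -/- cells by -0.94 ± 0.181 untreated and -1.14 ± 0.181 after LPS, with no overlap in either case. Nsd3, an H3K36 methyltransferase, rose with LPS by 1.14 ± 0.152 in Hdac3 +/- cells and was at 0.00 ± 0.152 in Hdac3 -/- cells. Its interaction of -1.14 ± 0.215 (limma adjusted p = 0.0224) held in 6 of 12 fits without 1 array. Pcgf5, a PRC1 subunit, read 7.00, 6.43 and 7.11 untreated and 8.84, 8.84 and 9.09 with LPS in Hdac3 +/- cells, and 6.55, 6.68 and 6.43 against 6.95, 7.30 and 7.04 in Hdac3 -/- cells. Its interaction was -1.54 ± 0.249 (limma adjusted p = 0.00802) and held in all 12 fits. Kmt5c, an H4K20 methyltransferase, fell by -1.48 ± 0.144 and -1.30 ± 0.144 with LPS in Hdac3 +/- and -/- cells, and differed between genotypes by -0.19 ± 0.144 untreated and -0.00 ± 0.144 after LPS.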

How the data were processed

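The authors deposited 1 log2 signal per probe set and array. The submitters' processing notes name RMA and affy, without versions, settings or a genome build. After RMA array medians still lay between 5.19 and 5.37, and signal ranges also differed between arrays. Of 28193 probe sets 21648 had 1 symbol in the platform annotation, 1313 several and 5232 none, and the last 2 kinds were left out. The brightest probe set per symbol gave 19945 genes. All 64 enzyme genes matched RefSeq (GRCm38.p6) by Entrez identifier.

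A limma 3.58.1 model (R 4.3.3) with 4 group means was fitted to all 12 arrays, with eBayes without a trend and Benjamini-Hochberg adjustment per contrast at 0.05. It was tested on simulated data. Tables and figures used Python 3.11.15 with pandas 2.3.3, numpy 2.4.6 and matplotlib 3.10.9. The 22 alternatives changed normalization, filter, model or probe set choice, or left out arrays. Precision is limited by the number of arrays.

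Deviations from group means of same-numbered untreated and LPS arrays correlated at 0.243, 0.327 and 0.223 in Hdac3 +/-. They correlated at 0.0898, 0.195 and -0.122 in Hdac3 -/-. Some arrays of different genotype correlated as much as the Hdac3 +/- ones, so pairing by number was not established. The model of group means had no replicate block, which was used only in alternatives.

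The genes and lists were chosen with earlier results of these data known. Named were 11 genes in any case, the genes called in a comparison up to 12 per direction, Hdac3, and up to 3 called genes per list. Sirt7 and Kat8, the range limits Kdm4c and Kdm5b, the sex-linked genes, S100a8, the called cell type markers, genes close to the threshold and genes called only in an alternative were named after their values were seen.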

Additional observations from a re-analysis of the deposited data

Results flagged for a closer look

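The LPS response of Setdb2 differed between genotypes by a test of the difference itself. The interaction was -1.91 ± 0.238 on the log2 scale (limma adjusted p = 0.0013, n = 3 arrays per group), from a rise of 2.49 in Hdac3 +/- and of 0.57 in Hdac3 -/- cells, and all 3 LPS-treated Hdac3 -/- arrays lay below all 3 LPS-treated Hdac3 +/- arrays. With 3 arrays per group single arrays were not tested as outliers.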

How the results depend on the processing

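Of 48 calls of an enzyme gene in a comparison 26 held in every alternative run. Of 1039 recomputed values 921 stayed past the threshold in the same direction, 118 kept the direction without passing, and 0 reversed. Part of this was fixed in advance, because some alternatives changed only the SE or adjusted p of a gene and not its difference. Among them were fits without an array of neither compared group, the eBayes trend, the signal filter and the groups compared alone. Leaving out 1 array gave 20 to 29 called genes for LPS in Hdac3 +/-, 5 to 10 for LPS in Hdac3 -/-, 1 to 3 for genotype untreated, 6 to 18 for genotype after LPS and 1 to 2 for the interaction. Array weights gave 27, 5, 23 and 2 in place of 7, 2, 14 and 1 for LPS in Hdac3 -/-, genotype untreated, genotype after LPS and the interaction, and the groups compared alone gave 14 for LPS in Hdac3 -/- and 1 for genotype untreated. The largest array weights, 3.38 and 2.77, were those of replicate 1 of untreated and LPS-treated Hdac3 -/- cells. The cause was not tested. A replicate block within genotype gave 30 for LPS in Hdac3 +/-, 10 for LPS in Hdac3 -/- and 2 for the interaction. Correlations between arrays did not establish pairing by number in either genotype. A replicate block over all arrays gave 24, 6, 2, 11 and 1. Signals near the floor limit Prmt8, Kdm4d, Kdm5d and Suv39h2.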

Other observations

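Some enzymes of DNA methylation were called with LPS. Of 13 measured genes for DNA methylation and TET enzymes 2 rose and 6 fell in Hdac3 +/- cells, and 1 rose and 3 fell in Hdac3 -/- cells. Over all genes 9.59% rose and 15.5% fell in Hdac3 +/- cells, and 3.69% and 5.18% in Hdac3 -/- cells. Tet2, which oxidises 5-methylcytosine, rose by 1.87 ± 0.241 and 1.19 ± 0.241 in these genotypes, and it was lower in Hdac3 -/- cells after LPS by -1.09 ± 0.241 (limma adjusted p = 0.00738). Dnmt1, the maintenance methyltransferase, fell by -1.88 ± 0.273 and -1.58 ± 0.273, and Mbd4, a repair glycosylase that binds methylated CpG, by -1.75 ± 0.17 and -1.37 ± 0.17. Of 19 acetyl-lysine readers 1 rose, Brd2, and 6 fell with LPS in Hdac3 +/- cells, beside 11.5% and 25.3% of genes with a signal of at least 5. In Hdac3 -/- cells 0 rose and 1 fell. In the interaction test limma called 0 of the 19, and 4 had an unadjusted p under 0.05.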
